A study of Mus musculus with 8 samples.

Results

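The organic ion carriers of the Slc22, Slco and Slc47 families were followed in brain, kidney and liver of mice that drank lead. Members were all genes whose name in the array files begins with Slc22a, Slco or Slc47a and a number. This gave 43 genes of 37061 on the array, measured by 77 probes of 56605. They comprise 26 Slc22, 15 Slco and 2 Slc47 genes. Male mice had lead acetate in their drinking water for 3 weeks, the low dose being 100 mg/L and the high dose 1000 mg/L. Brain and kidney were measured at both doses and liver at the high dose. Controls drank distilled water and gave brain, kidney and liver. Each of these 8 groups had 1 array. Strain, age and the number of mice behind a sample are not given in the sources used here, and neither is whether tissues came from the same mice. The RNA came from small pieces of each organ, so a difference between arrays can hold differences between pieces.

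Slc22 and Slco carriers let charged drugs, hormones, bile acids, vitamins and waste products cross cell membranes. In the kidney proximal tubule, organic anion transporters (OATs) take anions from blood in exchange for dicarboxylates leaving the cell, whose outward gradient is kept up by sodium-coupled importers and the sodium pump. Organic cation transporters (OCTs) use the membrane potential, the carnitine carriers (OCTNs) use sodium, and the multidrug and toxin extrusion proteins of the Slc47 family release cations into urine in exchange for protons. Organic anion transporting polypeptides (OATPs, the Slco genes) bring bile acids, steroid conjugates, prostaglandins and thyroid hormones into hepatocytes, tubule cells and the cells of the blood-brain barrier.

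The probes are 60 bases long, and several members are close copies that lie side by side, so their sequences matter for what a signal means. On chromosome 19, the probes that report Slc22a19, Slc22a26, Slc22a27, Slc22a28, Slc22a29 and Slc22a30 lie in that order, starting at position 7757409 and ending at 8419057 (mm9, as in the array files). The probes of 3 of these neighbours, on the minus strand, read as follows; these and the whole probes printed further on were taken as coding only because at least 1 reading frame over them holds no stop codon, with no annotation of that build used here.
Slc22a19, chr19:7757409-7758232: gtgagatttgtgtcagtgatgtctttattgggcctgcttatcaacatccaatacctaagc
Slc22a28, chr19:8137911-8137970: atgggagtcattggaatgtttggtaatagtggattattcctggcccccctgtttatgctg
Slc22a30, chr19:8418998-8419057: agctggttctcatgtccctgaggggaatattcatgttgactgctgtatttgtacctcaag
The Slc22a19 probe is shown because it carries one of the kidney differences, and the Slc22a28 and Slc22a30 probes because they differ clearly from each other, while another pair of probes of these genes does not. Of those other probes, 50 of 53 overlapping bases matched, and a 30-base stretch of each is given here with capitals at the letters that differ.
Slc22a28: attGtAttcaggacatggtgacaattttcC
Slc22a30: attTtGttcaggacatggtgacaattttcT
Among 2868 pairs of probes of different members, 2 pairs shared a run of 20 bases or more. The other such pair was the probe of Slc22a21 and the second probe of Slc22a5, neighbours on chromosome 11, whose shared run is 33 bases long and begins as follows.
Slc22a5 and Slc22a21: tgagtctcttgaacaagcaggacttggaag
Signals of Slc22a5 and Slc22a21 on these probes, and of Slc22a28 and Slc22a30 on theirs, cannot be told apart with certainty. A further 2 probes, on the plus strand, are shown because they differ from the reported probe of their gene in what they detected.
Slco1c1, chr6:141511731-141513094: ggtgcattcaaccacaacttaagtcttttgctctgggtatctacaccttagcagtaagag
Slco4a1, chr2:180198768-180198827: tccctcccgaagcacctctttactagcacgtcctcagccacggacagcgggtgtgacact

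All levels are log2 values relative to the 75th percentile of the array's signal, and all differences are log2 differences, so that 1 stands for a 2-fold change. A level compares arrays for 1 probe and does not rank genes. On an array, 53.4% to 67.1% of spots stood well above background, with fewest in liver. The 75th percentile of the signal was 919 to 954 units in brain, 729 to 782 in kidney and 427 to 435 in liver. The labelled tissues carried their defining markers: all 6 neuronal markers were above background in brain, all 8 early proximal tubule markers in kidney and all 9 hepatocyte markers in liver. Some were detected elsewhere too: 3 or 4 neuronal markers per kidney array and 4 per liver array. Tubule markers numbered 5 or 6 per brain array and 4 per liver array, and hepatocyte markers 1 to 3 in brain and 4 to 6 in kidney. Of the 43 carriers, 25 were above background on every brain array, 34 on every kidney array, 27 on both liver arrays and 22 on all 8 arrays. No array detected Slc22a14, Slc22a20, Slco5a1, Slco6b1, Slco6c1 or Slco6d1.

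**Figure D1:**
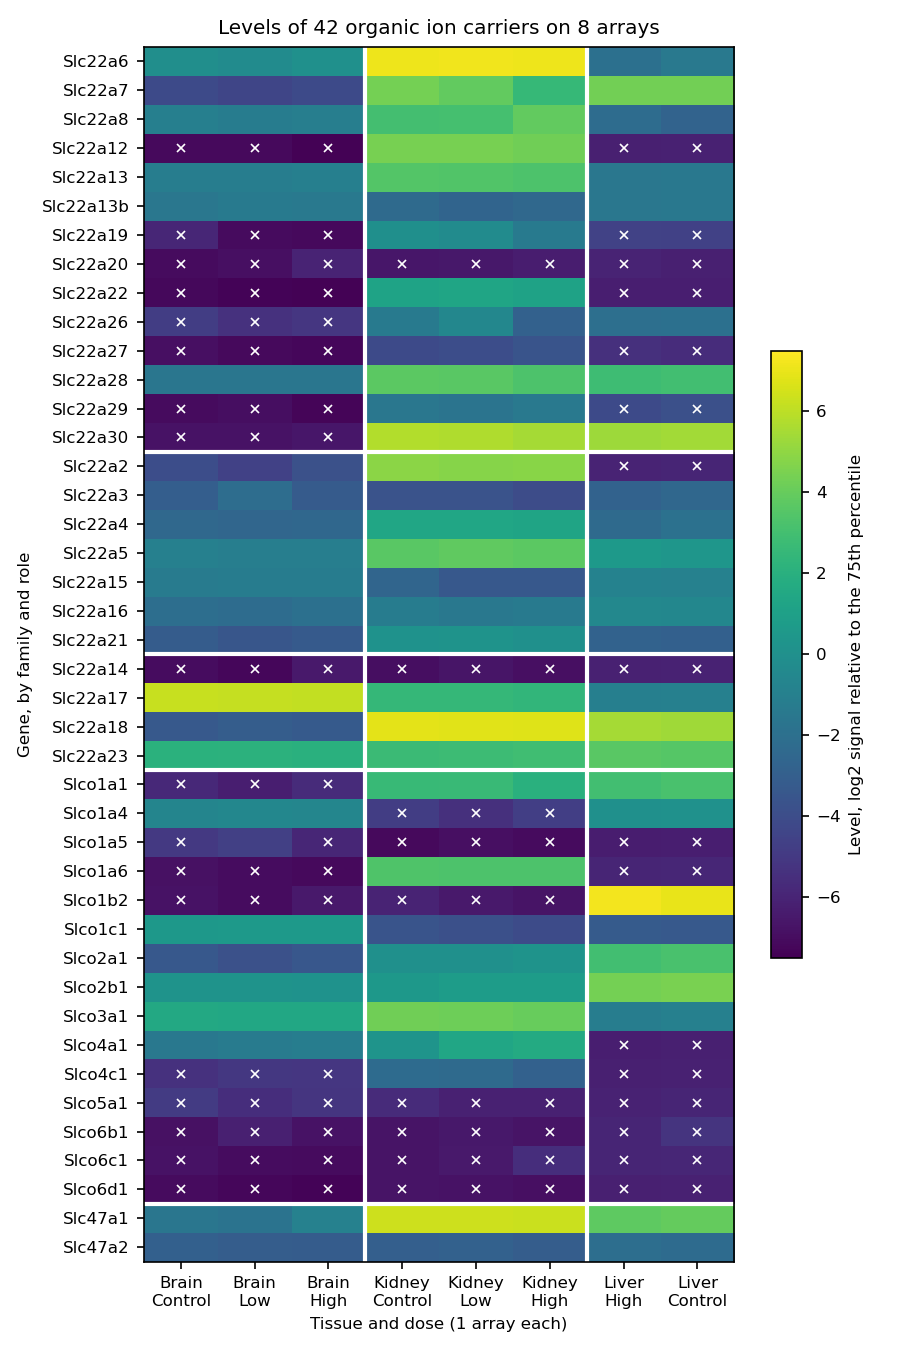
Level of 42 of the carriers (rows, by family and role) on each of the 8 arrays (columns), as log2 signal relative to the array's 75th percentile; colours compare arrays within a row, and crosses mark spots not above background. Slc22a6 is at 7.10 to 7.16 on the kidney arrays, Slco1b2 at 7.26 and 7.03 on the liver arrays and Slc22a17 at 6.11 to 6.22 on the brain arrays.

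Most carriers differed in level between organs. Tissue differences were taken from a limma fit of tissue and dose over the 8 arrays, in which arrays of a tissue at different doses stand in for replicates, and a gene was called at an adjusted p under 0.05 and a difference of at least 1. Among the 22 carriers above background on all 8 arrays, 17 differed between brain and kidney (4 higher and 13 lower in brain), where 38.3% of the 17350 genes above background on all arrays were called (14% higher and 24.3% lower). Between kidney and liver 14 of the 22 differed, 10 higher and 4 lower in kidney, against 25.6% of all such genes (11.2% higher and 14.4% lower). Between brain and liver 15 of the 22 differed, 5 higher and 10 lower in brain, against 49.2% of all (15.5% higher and 33.7% lower). The median difference of the 22 carriers was -3.53 for brain minus kidney, 0.04 for kidney minus liver and -0.67 for brain minus liver, beside -0.28, -0.22 and -0.53 over the 17350 genes. Kidney was called above both other organs for 9 of the 22, brain for 2 and liver for 2. Over the whole fit of 24501 genes, called shares were 47.7%, 32.3% and 56.9% for brain minus kidney, kidney minus liver and brain minus liver. A change of scaling moved the median of those genes by more than 0.1: for brain minus kidney it was -0.15, and -0.43 when arrays were scaled on their medians. For brain minus liver it was -0.31, and -0.62 with that scaling. Differences between organs below 1 are given as values and were not called.

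The OATs of the blood side of the tubule had their highest level in kidney. Slc22a6 (OAT1), the main basolateral importer of p-aminohippurate and many drugs, was at -0.09, -0.27 and 0.02 in control, low-dose and high-dose brain. It was at 7.11, 7.16 and 7.10 in kidney, and at -1.95 in high-dose liver and -1.41 in control liver. The kidney values do not overlap those of any other organ, with kidney above liver by 8.83 ± 0.15 (SE, limma adjusted p = 8.51e-08). Slc22a8 (OAT3), its basolateral partner, which also works at the choroid plexus and the blood-brain barrier, lay at -1.19 to -1.05 in brain, 3.01 to 3.91 in kidney and -2.75 to -2.21 in liver. Brain was above liver for both genes, by 1.60 ± 0.15 for Slc22a6 and 1.46 ± 0.20 for Slc22a8 (SE, limma adjusted p = 7.46e-05 and 4.92e-04). Slc22a7 (OAT2), a carrier of nucleotides and other anions, had another pattern. It was at -4.34 to -4.14 in brain but at 4.38, 3.91 and 2.52 in control, low-dose and high-dose kidney, and at 4.29 in high-dose and 4.31 in control liver. Kidney minus liver was -0.74 ± 0.43 for Slc22a7 (SE), which did not pass the test (limma adjusted p = 0.173). Without the control kidney array it was -1.24 and passed.

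Slc22a12, Slc22a22 and part of the rodent OAT cluster were above background in kidney alone. Slc22a12 (URAT1, the renal urate reabsorber) was at 4.23 to 4.41 on the kidney arrays and below background on all brain and liver arrays. For such genes a lower bound of the fold is given, computed from the bright level and the lowest signal that counted as above background. They entered the tissue fit through an organ where they were bright, so no p-value is given with these folds. Slc22a12 was at least 695-fold lower in brain than in kidney, and at least 325-fold higher in kidney than in liver. Slc22a22 (OAT-PG, a kidney prostaglandin carrier) reached 1.14 to 1.30 in kidney, at least 36.7-fold above liver. Slc22a19 (OAT5, which moves steroid sulfates) was above background in kidney alone, at least 10.9-fold above liver. Slc22a27 and Slc22a29, relatives from the same cluster, were also below background in brain and liver, with at least 1.06-fold and 5.2-fold higher signal in kidney than in liver. The second probe of Slc22a27 was below background on every array, so its detection in kidney rests on 1 of 2 probes. Slc22a27 entered the tissue fit through kidney alone. Its call for kidney minus liver was lost with normal-exponential background correction, at 0.37, and with the mean of its probes, at 0.28. Slc22a13 (OAT10, a carrier of nicotinate and urate) was detected everywhere, at -1.12 to -1.01 in brain, 3.29 to 3.50 in kidney and -1.54 to -1.51 in liver, and was called higher in kidney than in either. Slc22a13b, which the array files name as a pseudogene (Slc22a13b-ps), went the other way between brain and kidney, by 1.04 ± 0.13 (SE). That call was lost under array median scaling (0.77) and quantile normalization (0.88).

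Slc22a30, Slc22a28 and Slc22a26, from the same cluster, were above background in both kidney and liver. Slc22a30 was below background in brain and at 5.47 to 5.78 in kidney and 5.28 to 5.43 in liver. In brain it was at least 1708-fold lower than in kidney. The kidney and liver values of Slc22a30 differed by 0.29 ± 0.11 (SE, limma adjusted p = 0.0573). Slc22a28 read 3.32 to 3.73 in kidney and 2.82 to 2.97 in liver, with kidney minus liver at 0.65 ± 0.10 (SE), short of the size of 1. In brain its reported probe, printed above, gave -1.63 to -1.60, while its second probe was below background there. Detection of Slc22a28 in brain therefore rests on 1 probe. Slc22a26 was above background in kidney and on the reported probe in liver (-2.02 and -1.95), but its second probe was below background in liver.

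Cation and carnitine carriers split by subtype. Slc22a2 (OCT2), the renal cation importer, was at 4.79 to 4.86 in kidney and below background in liver, at least 449.7-fold apart. Brain held a low Slc22a2 signal of -4.60 to -3.76. Slc22a3 (OCT3, which clears monoamines outside neurons) lay at -3.20 to -2.16 in brain, -4.04 to -3.64 in kidney and -2.77 to -2.50 in liver. Kidney minus liver for Slc22a3 was -1.33 ± 0.23 (SE, limma adjusted p = 0.00236), a call lost with normal-exponential correction (-0.71).
Slc22a4 (OCTN1, the ergothioneine carrier) and Slc22a5 (OCTN2, the main carnitine importer) were both highest in kidney. Slc22a4 was at -2.53 to -2.44 in brain, 1.27 to 1.40 in kidney and -2.32 and -1.91 in liver. Slc22a5 was at -1.09 to -0.99 in brain, at 3.65, 3.82 and 3.72 in control, low-dose and high-dose kidney, and at 0.55 in high-dose and 0.39 in control liver, with kidney above liver by 3.24 ± 0.08 (SE, limma adjusted p = 3.75e-07). Slc22a21 (OCTN3) followed the same order, with kidney above liver by 3.00 ± 0.15 (SE), though its probe shares the run shown above with Slc22a5. Slc22a15 and Slc22a16 (a carnitine carrier of testis in humans) were detected on all arrays. Slc22a16 was at -2.22 to -1.99 in brain, -1.47 to -1.18 in kidney and -0.58 and -0.49 in liver. Slc22a15 was lowest in kidney, with brain minus kidney at 1.88 ± 0.19 (SE), a call lost when its 6 probes were averaged (0.72).

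Among the less characterised Slc22 genes, Slc22a17, described as a receptor for lipocalin 2, was highest in brain. It was at 6.11 to 6.22 in brain, 2.40 to 2.51 in kidney and -1.02 to -0.97 in liver, and brain exceeded kidney by 3.71 ± 0.04 and liver by 7.16 ± 0.05 (SE, limma adjusted p = 6.33e-09 and 5.95e-09). Its second probe gave 1.93 to 2.13 in brain and -1.96 to -1.67 in kidney and was below background in liver, the same order. Slc22a18, an imprinted gene, stood at -3.30 to -3.08 in brain, 6.75 to 6.86 in kidney and 5.39 to 5.49 in liver. Slc22a23 was at 1.99 to 2.14 in brain, 2.73 to 2.92 in kidney and 3.55 to 3.68 in liver, with brain minus liver at -1.57 ± 0.08 (SE, limma adjusted p = 2.20e-06). Slc22a14, a sperm gene, stayed below background.

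The Slco1 genes lie together on chromosome 6, from 141518164 to 142196301 (mm9, reported probes), and differed in organ. Slco1b2, the hepatocyte importer of bilirubin conjugates, bile acids and many drugs, read 7.26 in high-dose and 7.03 in control liver and was below background elsewhere. Its signal was at least 4811-fold lower in brain, and at least 3752-fold lower in kidney, than in liver. Slco1a6, a kidney OATP, was at 3.33 to 3.34 in kidney and below background in liver, at least 161-fold apart. Slco1a1, a male-predominant carrier of steroid conjugates, was below background in brain and shared by kidney (2.0 to 2.65) and liver (2.94 to 3.18). Slco1a4, the digoxin carrier of the blood-brain barrier and liver, showed the reverse gap. It was at -0.67 to -0.57 in brain, below background in kidney and at 0.01 to 0.12 in liver. The kidney signal was at least 16.7-fold lower than in brain and at least 26.9-fold lower than in liver. Slco1c1, the thyroxine carrier of the blood-brain barrier, read 0.50, 0.54 and 0.60 in control, low-dose and high-dose brain on the reported probe, and -4.07 to -3.61 in kidney and -3.31 to -3.22 in liver. The probe of Slco1c1 printed above gave -0.06 to 0.25 in brain and was below background in kidney and liver. Slco1a5 was above background on the low-dose brain array alone.
The remaining OATPs spanned organs. Slco2b1, a steroid sulfate carrier, was at 0.17 to 0.19 in brain, 0.51 to 0.81 in kidney and 4.37 to 4.48 in liver, and was called higher in liver than in either. Its second probe, which the array files place on the opposite strand, had another order, with -2.58 to -2.26 in brain, -1.85 to -1.56 in kidney and -2.59 to -2.34 in liver. Slco2a1, the prostaglandin importer, had the order of the reported Slco2b1 probe on its own reported probe (brain -3.77 to -3.35, kidney 0.05 to 0.21, liver 2.93 to 3.22), but 1 of its other 3 probes was highest in brain (-1.07 to -0.89). Slco3a1 was highest in kidney at 4.02 to 4.27, and its 4 other probes also read highest there. Slco4c1, known in humans as a kidney carrier of cardiac glycosides and thyroid hormone, was above background in kidney alone, at -2.86 to -2.24, at least 2.87-fold above liver. Slco4a1 was at -1.52 to -1.13 in brain, 0.26 to 1.64 in kidney and below background in liver on its reported probe. On that probe it was at least 34.1-fold higher in kidney than in liver. The probe of Slco4a1 printed above gave the other order, with -2.49 to -2.20 in kidney and -1.96 and -1.37 in liver. So did its remaining probe, with -3.72 to -3.53 in kidney and -2.98 and -2.94 in liver. The higher kidney signal of Slco4a1 thus rests on the reported probe. The Slco6 genes, OATPs of testis, were below background on every array.

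Slc47a1 (MATE1), which discharges cations into urine and bile, was at -1.79 to -0.93 in brain, 6.34, 6.33 and 6.31 in control, low-dose and high-dose kidney, and 3.76 in high-dose and 3.95 in control liver. Kidney exceeded liver by 2.56 ± 0.22 (SE, limma adjusted p = 7.38e-05). Slc47a2 was at -3.11 to -2.91 in brain, -3.07 to -2.84 in kidney and -2.24 and -2.08 in liver, and none of its contrasts between organs reached 1.

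Kidney at the high dose had the most carriers past the size rule of the 7 comparisons between doses. Each group has 1 array, so a size rule took the place of a test: a log2 difference of at least 1, both spots above background and unsaturated, and more than 3 times the array error that the scanner software gives for both spots, which leaves out variation between animals. In high-dose against control kidney, 4 of the 34 measured carriers passed, where 1.66% of all 21226 measured genes did. They were 3 lower OATs (0.542% of all genes were lower) and 1 higher OATP (1.12% were higher).

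Slc22a7 (OAT2, chr17:46569272-46569331) had the largest carrier difference in this comparison. Its levels of 4.38, 3.91 and 2.52 in control, low-dose and high-dose kidney descended with dose. The high-dose array was lower than control by a factor of 3.62 (difference -1.86, array error 0.20). In liver, where this gene was about as bright, high dose minus control was -0.03.

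Slc22a26 was next, at -1.39, -0.54 and -2.86 in control, low-dose and high-dose kidney, 2.78-fold lower at the high dose than in control (difference -1.47, array error 0.22). The low-dose array was the highest of the series on this probe. The second Slc22a26 probe read -1.13, -1.03 and -3.14 and gave -2.01 for high dose minus control. The high-dose level lies near the detection limit. With a filter that asks for 4 times the lowest detected signal Slc22a26 was not measured, and normal-exponential correction gave -0.97. Slc22a19 (OAT5), its neighbour, was at -0.02, -0.25 and -1.37 in control, low-dose and high-dose kidney, 2.55-fold lower at the high dose (difference -1.35, array error 0.21). The low dose lay close to control and the high dose stood apart. Its second probe was below background on every array, and the mean of both probes, -1.18, could not be called.

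The 4 other genes of the chromosome 19 cluster did not share that size. High dose minus control was 0.52 for Slc22a27, -0.42 for Slc22a28, 0.13 for Slc22a29 and -0.30 for Slc22a30. The second Slc22a28 probe gave -0.34, and the other Slc22a30 probes gave -0.42 and -0.35.

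Slco4a1, a thyroid hormone and prostaglandin OATP, was higher at both doses on its reported probe (chr2:180209483-180209542). It read 0.26, 1.40 and 1.64 in control, low-dose and high-dose kidney, 2.61-fold higher at the high dose than in control (difference 1.38, array error 0.20). The probe printed above, toward the start of the gene, read -2.20, -2.49 and -2.27, and another probe -3.59, -3.72 and -3.53. These gave -0.08 and 0.05 for high dose minus control, and the mean of the probes was 0.45, so the increase of Slco4a1 rests on 1 of 3 probes.

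**Figure D2:**
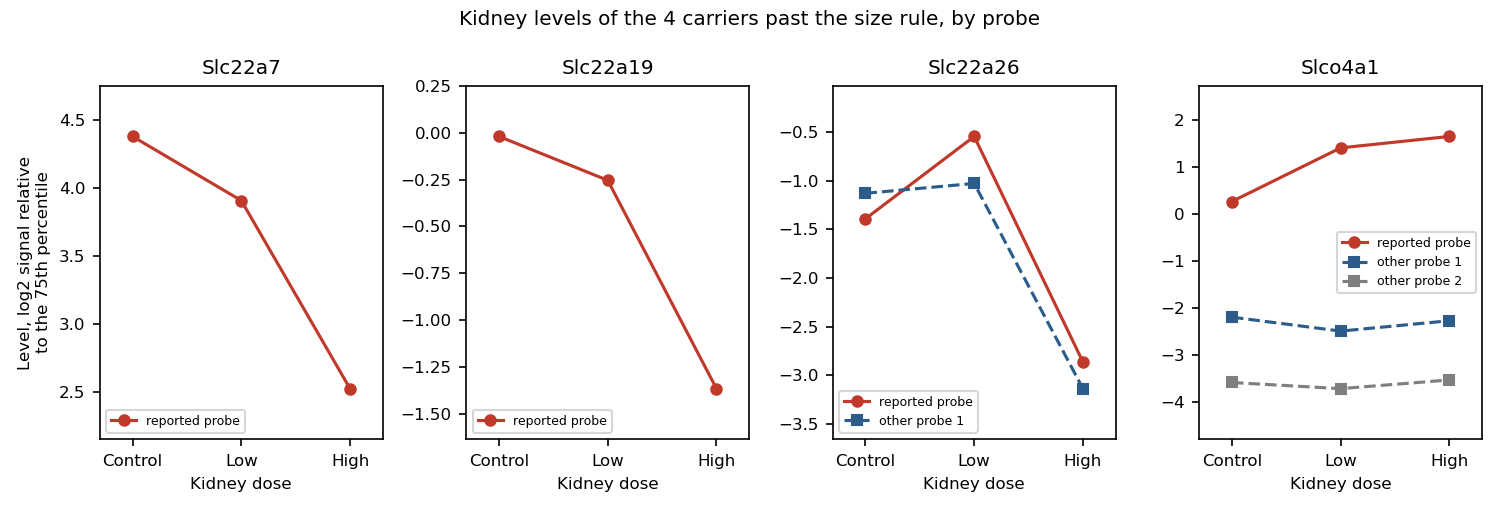
Kidney levels (log2 signal relative to the array's 75th percentile) of the 4 carriers past the size rule against dose, 1 array per dose; the reported probe is in red with circles, and other probes detected on at least 1 kidney array are dashed with squares. Slc22a7, Slc22a19 and both Slc22a26 probes are lowest at the high dose, and the reported Slco4a1 probe is highest there while its other probes stay level.

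The other 30 measured kidney carriers lay between -0.73 and 0.90 at the high dose, and 25 of them within 0.5 of control. Slc22a8 (OAT3) came closest to the rule, at 3.01, 3.05 and 3.91 in control, low-dose and high-dose kidney, a difference of 0.90. Its chromosome 19 neighbour Slc22a6 (OAT1) differed by -0.01. Slco1a1 was at 2.0 at the high dose and 2.61 in control (-0.61), and its second probe gave -0.59. Slco4c1 differed by -0.62. Slc22a15 differed by -0.74 at the low and -0.73 at the high dose, but by -0.29 and -0.26 on another probe. Among cation carriers, Slc22a2 differed by -0.05, Slc22a5 by 0.06 and Slc47a1 by -0.03. The urate carrier Slc22a12 differed by -0.18. Of the 34 carriers 26 lay below control and 8 above, with a median of -0.12, beside -0.03 over all measured genes. Several of the 26 lay within the array error, such as Slc22a2, Slc22a6 and Slc47a1. With quantile normalization 23 lay below and 11 above, and with the mean of probes 27 and 7. The share of all genes below control was not computed. By role, 10 of 13 OATs (counting the pseudogene Slc22a13b), 7 of 8 cation and carnitine carriers and 5 of 8 OATPs lay below control.

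**Figure D3:**
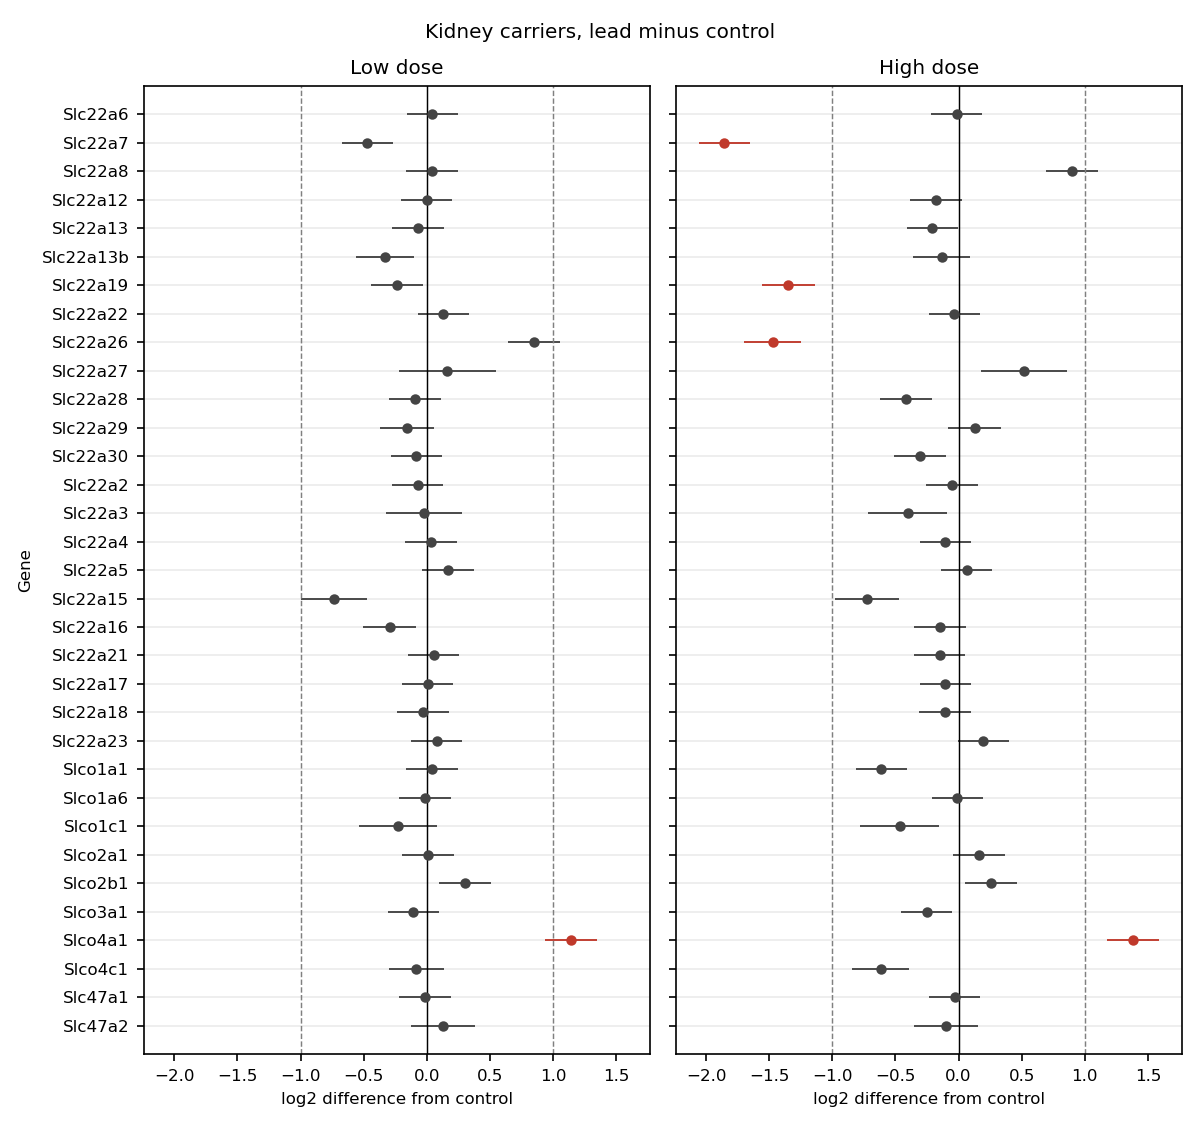
Log2 difference from control kidney of 33 measured carriers at the low and high dose; bars are the array error of the scanner software, dashed lines mark differences of 1 and -1, and red marks carriers past the size rule. Slco4a1 is red in both panels, and Slc22a7, Slc22a19 and Slc22a26 are red at the high dose.

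At the low dose, Slco4a1 was the 1 carrier of 34 past the rule (difference 1.14, 2.2-fold higher, array error 0.20), where 0.49% of all 20823 measured genes passed and 0.216% were higher. Its other probes gave -0.30 and -0.13. The other 33 carriers lay between -0.74 and 0.85, the ends being Slc22a15 and Slc22a26, and the second probe of Slc22a26 gave 0.10.

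High-dose kidney set against low-dose kidney does not use the control array. Here 3 of 34 carriers passed, all lower, where 1.07% of all 20773 measured genes passed and 0.241% were lower. They were again Slc22a26 (-2.32, 5-fold lower, second probe -2.11), Slc22a7 (-1.38, 2.61-fold lower) and Slc22a19 (-1.11, 2.16-fold lower). With normal-exponential correction Slc22a19 gave -0.89 and was not called. Slco4a1 gave 0.24, and Slc22a8 0.86.

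Markers of other cells moved between the same kidney arrays. For high dose minus control, 1.12% of all 21226 measured genes were higher and 0.542% lower by the size rule. In bulk tissue, fewer cells of a type and less RNA per cell cannot be told apart. Late proximal tubule markers, from the segment where several OATs work, were all above background. High dose minus control had a median of -0.37 over these 6 markers, with 5 below control and 0 past the rule. Their summed level was 6.72, 6.69 and 6.49 in control, low-dose and high-dose kidney. The 8 early proximal tubule markers had a median of 0.02, and summed to 8.24, 8.22 and 8.21. Spermatid markers were higher at the high dose for 8 of the 9 that were measured, with summed levels of 2.52, 1.87 and 4.63 and 9, 7 and 10 of 11 above background. The testis genes Slc22a14, Slco6b1, Slco6c1 and Slco6d1 were below background on that array too. Adrenal markers ran the other way, with 3 of 6 measured lower at the high dose and summed levels of 2.68, 0.82 and 0.67, and 9, 5 and 6 of 11 above background. Hepatocyte markers summed to 2.10, 2.08 and 2.30, with 4, 4 and 6 of 9 above background. Alb and Ahsg were called higher among 4 measured. The other 2 did not rise, with Tat at -1.88 in control and -2.73 at the high dose, and Apoh at 1.88 and 1.87. The 11 markers of distal nephron and collecting duct had a median of 0.17, with 0 called. The 7 androgen-dependent kidney genes had a median of -0.18, with 0 called. The part of these cell types in the carrier differences was not tested.

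Partner systems of the carriers were read from lists of genes. ABC efflux pumps, which expel conjugates and drugs from the cell, were higher in high-dose kidney for 5 of 10 measured members and lower for 0, with a median of 0.88. Over all 21226 measured genes 1.12% were higher and 0.542% lower, with a median of -0.03. The 5 pumps were Abcb1b (1.70), Abcc3 (1.53), Abcc4 (1.5), Abcb4 (1.39) and Abcb1a (1.10). Abcc4 and Abcb1a pump substrates out of the cells that OATs and OCTs load. Of the 6 genes that set the driving gradients, 0 passed, with Slc13a2 and Slc13a3, the dicarboxylate importers, at 0.05 and 0.26 and Slc9a3, a proton exchanger, at 0.13. Of 15 measured regulators and scaffolds 0 passed, with Hnf4a, a driver of tubule and hepatocyte genes, at 0.10. Of 6 monoamine clearance genes 1 was lower, the low-affinity monoamine carrier Slc29a4 (-1.04), while the oxidases Maoa and Maob gave 0.89 and 0.84. Of 4 prostaglandin genes 1 was higher, Abcc4 again, and Ptgs1, Ptges and Hpgd lay between -0.19 and 0.30. Carnitine use (8 measured), thyroid hormone handling (5 measured) and bile acid carriers (4 measured) had 0 past the rule in high-dose kidney. At the low dose, 0 of the 10 pumps passed.

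Brain carriers differed little from control at either dose. None of the 25 measured carriers passed the size rule at the low dose, where 0.75% of 22537 genes did, or at the high dose, where 0.451% of 22641 did. Medians were -0.08 and -0.01 at the low and high dose, beside -0.0021 and -0.0033 over all measured genes. Slc22a3 (OCT3) was at -3.02, -2.16 and -3.20 in control, low-dose and high-dose brain. The low-dose array was the highest, by 0.86 over control, and high minus low dose was -1.05 (array error 0.22), the 1 carrier of 25 past the rule there. Of all 23015 genes in that comparison 1.05% passed and 0.734% were lower. With normal-exponential correction Slc22a3 gave -0.64 and was not called.
Markers of striatum were higher than control on the low-dose brain array for all 10 members (median 1.59), with summed levels of 6.03, 7.62 and 5.39 in control, low-dose and high-dose brain and all 10 above background on each. Their part in the Slc22a3 difference was not tested. Slc22a2 was lowest on the low-dose array, at -4.60, against -3.94 in control (-0.66).

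At the high dose Slc47a1 (MATE1) read -0.93 in brain, against -1.60 in control (0.67), and Slco4a1 gave 0.39. The carriers of the blood-brain barrier lay close to control, with Slco1c1 at 0.04 and 0.10 and Slco1a4 at 0.10 and 0.03 for the low and high dose. The 9 brain endothelium markers had medians of 0.10 and 0.08. Slc22a8, which also serves the choroid plexus, differed by -0.14 and -0.02. Choroid plexus markers were lower on the high-dose array for 8 of 10 measured, with summed levels of 6.22, 5.91 and 4.35 and 11, 11 and 10 of 11 above background. Spermatid markers were higher there for all 5 measured, and summed to -0.59, -0.72 and 3.46. Slc22a14, Slco6b1, Slco6c1 and Slco6d1 remained below background on that array. For Slc47a1 the part of these cell types was not tested. Slco1a5 was above background at the low dose alone, and was at least 1.19-fold higher there than in control and at least 1.45-fold lower at the high than at the low dose.

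In liver, 0 of 27 measured carriers passed the size rule at the high dose, where 0.792% of 19058 genes did. Differences lay between -0.54 and 0.54, with a median of -0.05 beside -0.02 over all genes, and 16 of the 27 were below control. The ends were a pair of OATs that are minor in liver: Slc22a6 was at -1.95 at the high dose and -1.41 in control, and Slc22a8 was at -2.21 at the high dose and -2.75 in control. Of the main hepatic carriers, Slco1b2 differed by 0.23, Slc22a7 by -0.03, Slco2b1 by -0.11 and Slc47a1 by -0.20. The ergothioneine carrier Slc22a4 gave -0.41, with an array error of 0.24. Slco1a1 and its second probe gave -0.24 and -0.07. All 6 male-biased liver genes lay below control (median -0.17), and 1 (Elovl3) passed the rule. Of 4 measured bile acid carriers, 10 ABC pumps and 16 regulators 0 passed, with Slc10a1, the sodium-coupled bile acid importer, at 0.05. The Slc10a1 probe barely separated the organs, at 8.99 to 9.02 in brain, 9.04 to 9.17 in kidney and 9.46 and 9.51 in liver. Whether it reads the hepatocyte transcript was not tested.

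**Figure D4:**
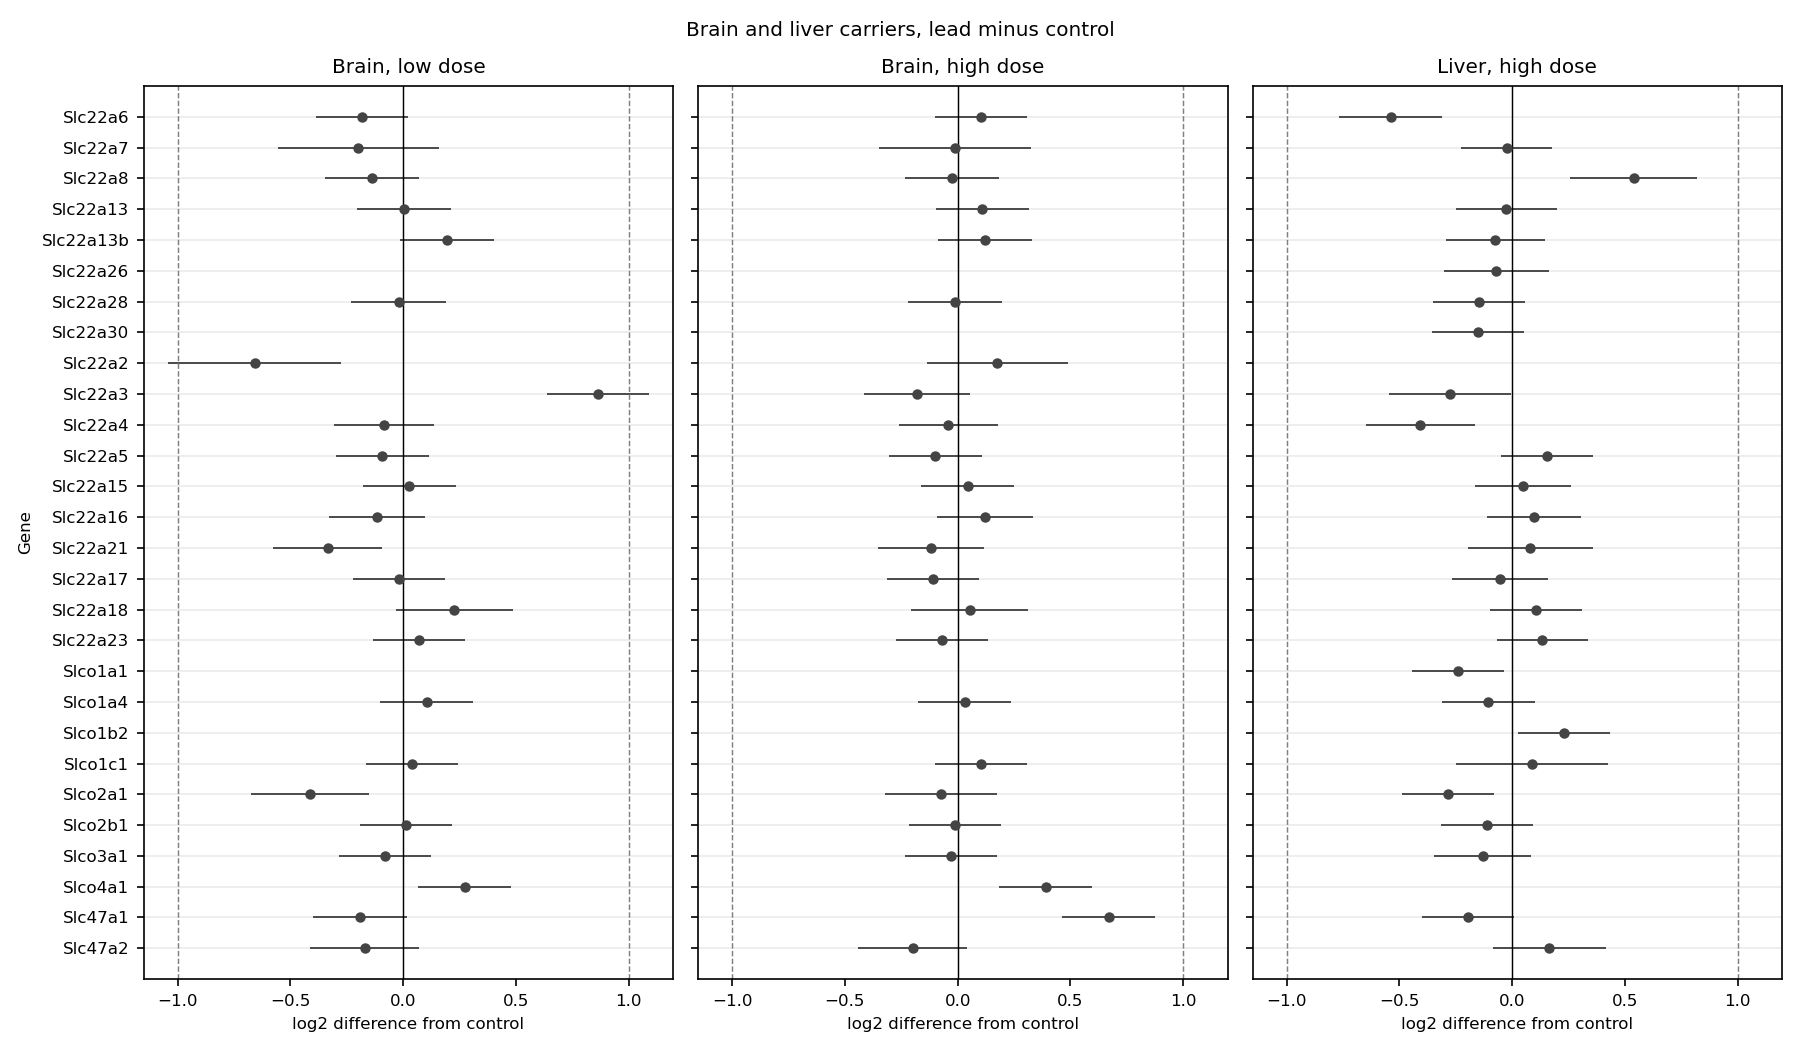
Log2 difference from control of carriers detected on every brain array or on both liver arrays, for the low and high dose in brain and the high dose in liver; bars are the array error of the scanner software and dashed lines mark 1 and -1. No carrier reaches 1: Slc22a3 lies at 0.86 in low-dose brain and Slc47a1 at 0.67 in high-dose brain.

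A dose effect shared by the organs was not found for any of the 22 carriers above background on all 8 arrays. Slc22a19, Slc22a26 and Slco4a1 were not among them and were not tested for it. The low dose had no liver array. In the limma fit 0 of 22 carriers and 0% of 17350 genes were called at the low dose, and likewise 0 of 22 and 0% at the high dose. At an unadjusted p under 0.05, 0 of the 22 carriers and 420 genes passed for the low dose, and 1 carrier and 1173 genes for the high dose. The 1 carrier was Slc22a8, higher by 0.47 ± 0.16 (SE, limma adjusted p = 0.69). Slc22a8 was above control in kidney (0.90) and liver (0.54) and at -0.02 in brain. With 1 array per group, whether a carrier's dose difference varies by organ was not tested.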

How the data were processed

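Cy3-labelled RNA of 8 samples was measured on 8 one-colour Agilent arrays. The deposited scanner files hold intensity per spot, already background-subtracted per the file headers. The submitters' processing notes name Agilent Feature Extraction 12.0.3.1. The error of that intensity gave the array error. Mean signal and median background per spot were used for the normal-exponential correction. The other value columns used are scanner flags of 0 or 1, per the file headers. Intensity also fills the deposited value table, which equals the scanner intensity divided by the array's 75th percentile over all spots. Its column medians were 0.112 to 0.114 in brain, 0.0905 to 0.094 in kidney and 0.0915 to 0.0918 in liver, and its scale is linear.

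Control and outlying spots were left out, spots of a probe were averaged as log2 values, and the 75th percentile over non-control spots was subtracted. Of several probes of a gene, the one brightest on average over the 8 arrays stood for it. Names came from the array files, updated through RefSeq accessions (GRCm38.p6, 32994 of 56605 probes matched, 1889 names changed), and probe positions are mm9. One array per group allows no p-value for a dose within a tissue. The size rule (1, and 3 array errors; for carriers the error was 0.204 to 0.385) was used there. limma 3.58.1 in R 4.3.3, with an intensity trend and Benjamini-Hochberg adjustment, fitted tissue and dose on genes above background on all arrays (dose) or on every array of a tissue (tissue). The limma fit for the high dose was run on levels simulated from its own fitted means and variances. The added effects were equal in all tissues. The size rule, the tissue contrasts and the fold bounds were not simulated. Python 3.11.15, numpy 2.4.6, pandas 2.3.3 and matplotlib 3.10.9 served for the rest.

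The members and lists were chosen with earlier results of these data known. Named carriers were those past a threshold, the 6 with the highest mean level per tissue and all members of the role groups; of partner lists, members past the rule and up to 3 others in list order were named. Alternatives were other scalings, background correction, filters, probe means, the deposited table, a fit without the trend and leaving out each array. Their number of arrays limits the precision, and p-values measure the spread between these arrays. Some genes are not reported here, though counts and medians include them.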

Additional observations from a re-analysis of the deposited data

How the results depend on the processing

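Counts of carriers past the size rule were within 1.5 times of those given under array median scaling, quantile normalization, normal-exponential correction, no filter, a stricter filter, the mean of probes and the deposited table, with 3 exceptions. With normal-exponential correction the brain count for high minus low dose was 0 (1 as given). With the mean of probes the kidney low-dose count was 0 (1 as given) and the kidney high-dose count was 2 (4 as given). Calls over all genes in high-dose kidney ranged from 141 to 540 over these settings (352 as given). In the whole tissue fit, 30, 25 and 27 of 36 carriers were called for brain minus kidney, kidney minus liver and brain minus liver. Over all 24501 genes the shares were 47.7%, 32.3% and 56.9%. These carrier counts stayed within 1.5 times under the other settings. Those of the 22 carriers above background on all arrays were not recomputed. Some of the 36 entered through an organ where they were bright, which favours a call. Their counts, here and on leaving out arrays, are therefore no evidence for the tissue differences. Leaving out each array gave 29 to 31 of 36 for brain minus kidney, 25 to 27 for kidney minus liver and 25 to 29 for brain minus liver, and 0 shared dose effects throughout. For brain minus liver, Slco1a6, below background in both, turned to 0.16 with normal-exponential correction, and that contrast is not reported for it. Read probe by probe, an alternative chosen after seeing the data, Slco4a1 turned to -0.30 and -0.13 at the low dose and to -0.08 on 1 probe at the high dose in kidney. The cause of these changes was not tested. The tissue fit already compares organs within a dose; the labels give no replicate numbers to pair. The methods find only signals above background: in liver fewer spots were, and carriers near the limit, such as Slc22a26 and Slc22a27, are read least precisely.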
